A study of Mus musculus with 10 samples.

Results

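Heat shock proteins and their partners are the protein-folding machinery of the cell. Their transcripts were compared in the hippocampus of 5 mice that had received Visudyne and 5 that had received vehicle. Members were taken by gene symbol from the protein-coding rows of the count table, as the Hspa, Hspb, Hspd, Hspe, Hsph, Hsp90, Dnaja, Dnajb, Dnajc and Cct genes, without Hspbp1 and Hspbap1. This gave 75 of 27343 genes, and 67 of the 75 passed the filter on low counts and were tested. The mice of both groups were wild-type C57BL/6J males, 2 months old. Visudyne is verteporfin, a photosensitizer, and it or the vehicle was injected into the cisterna magna. Red light of 689 nm was then shone above the intact skull, a procedure meant to ablate the meningeal lymphatic vessels, and it was carried out again after 2 weeks. After another 2 weeks the mice of both groups, as their sample names give it, performed the Morris water maze (MWM), a test of spatial memory. Whole hippocampus was taken 3 days later for sequencing of total RNA, so the tissue mixes neurons, glia and vessels. In such bulk RNA, fewer cells of a type and less RNA per cell cannot be told apart.

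HSP70 proteins bind exposed hydrophobic stretches of unfolded proteins and release them in a cycle driven by ATP. J-domain proteins, encoded by the Dnaj genes, bring clients and stimulate the ATPase, and HSP110 proteins exchange the nucleotide. HSP90 matures kinases and steroid receptors, HSP60 with HSP10 folds proteins in mitochondria, the CCT (TRiC) ring folds actin and tubulin, and small heat shock proteins hold aggregating proteins. A few of these genes are switched on by heat shock factor 1 through heat shock elements, which are inverted repeats of GAA. Chaperones of the endoplasmic reticulum are instead induced by the unfolded protein response through the ER stress element. Most others are expressed at all times, and neurons hold large amounts of constitutive HSP70 and HSP90.

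The promoters of 4 members are shown because they hold sequence matches to elements of stress responses. Whether any match is bound or used was not tested. Only exact matches in these windows were sought, so a window without one can still hold a variant element, or the gene an element elsewhere. They run from 250 bases before to 50 bases after the annotated start, from RefSeq on GRCm38.p6, and the capitals mark the matches. In the first 3 these are 2-unit heat shock elements, GAANNTTC or TTCNNGAA, both of which read the same on either strand, with matches allowed to overlap. In Hspa5 it is the ER stress element, CCAAT and CCACG with any 9 bases between them, searched on both strands.
Hspa1b, chr17:34959189-34959488, minus strand: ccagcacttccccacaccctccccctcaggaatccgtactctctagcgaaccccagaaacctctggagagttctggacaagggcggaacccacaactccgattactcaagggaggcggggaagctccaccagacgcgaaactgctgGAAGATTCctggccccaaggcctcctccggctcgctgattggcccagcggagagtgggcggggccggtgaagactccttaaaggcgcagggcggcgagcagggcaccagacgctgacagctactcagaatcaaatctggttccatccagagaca
Hspa1a, chr17:34972107-34972406, minus strand: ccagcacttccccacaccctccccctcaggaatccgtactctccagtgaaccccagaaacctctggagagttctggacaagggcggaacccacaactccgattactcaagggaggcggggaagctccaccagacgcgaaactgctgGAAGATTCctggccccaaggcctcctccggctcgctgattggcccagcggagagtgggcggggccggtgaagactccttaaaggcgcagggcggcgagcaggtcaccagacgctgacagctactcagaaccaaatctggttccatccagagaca
Hsph1, chr5:149636287-149636586, minus strand: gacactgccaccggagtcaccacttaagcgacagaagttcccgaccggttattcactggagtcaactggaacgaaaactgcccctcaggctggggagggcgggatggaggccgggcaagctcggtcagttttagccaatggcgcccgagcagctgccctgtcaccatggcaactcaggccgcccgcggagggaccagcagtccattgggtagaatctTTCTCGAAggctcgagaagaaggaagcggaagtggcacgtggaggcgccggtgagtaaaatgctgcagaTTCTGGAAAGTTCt
Hspa5, chr2:34771840-34772139, plus strand: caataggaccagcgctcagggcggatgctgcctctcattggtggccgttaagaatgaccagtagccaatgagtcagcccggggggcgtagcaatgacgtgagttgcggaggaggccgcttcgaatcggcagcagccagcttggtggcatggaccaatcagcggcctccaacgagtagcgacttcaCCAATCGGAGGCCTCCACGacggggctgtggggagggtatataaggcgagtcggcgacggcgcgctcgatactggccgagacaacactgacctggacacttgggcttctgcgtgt

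The windows of Hspa1a and Hspa1b were identical at 296 of 300 positions, and in both the element lay 104 to 97 bases before the start. In Hsph1 1 element lay 33 to 26 bases before the start. After the start of Hsph1 a stretch of 13 bases held overlapping matches, which together form the 3-unit element described below. In Hspa5 the ER stress element lay 65 to 47 bases before the start. Promoter windows were found for 61 of the 75 members, and 14 members had none in the table used. The 2-unit heat shock element was present in 15.1% of all 32851 promoter windows and in 20 of 79 windows of members, belonging to 18 genes. Of the 16 tested genes among them 2 were called higher, 1 lower and 13 not called, where 8.98% of all tested genes were called higher and 11.5% lower, and their median log2 fold change was 0.13. Of 39 tested members whose windows lacked it, 3 were called higher and 5 lower. A 3-unit element, the 2-unit one with another inverted unit 2 bases on, was in 0.603% of all windows and in those of Dnajb6, Hspd1, Hspe1 and Hsph1, none of which was called. The ER stress element was in 0.119% of all windows and in those of Hspa5, Hsp90b1 and Dnajc3, none of which was called.

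Total counts per library were 34548474 to 36956138 in Visudyne and 24752362 to 41073906 in vehicle, and 0.84% ± 0.0813 of them fell on the 75 members in Visudyne against 0.947% ± 0.0563 in vehicle (SD, n = 5 each). At TMM library sizes, used for every level given here, the members summed to 9004 ± 343 CPM in Visudyne libraries and 8819 ± 467 CPM in vehicle libraries, so the direction of the total depends on the scaling. The mitochondrial ribosomal RNA mt-Rnr2 took 33.6% to 39.7% of the counts in Visudyne and 32.2% to 35.7% in vehicle. Libraries also differed in how their counts followed the GC content of genes. The slope was -0.54 to 0.0079 log2 CPM per 10 points of GC content in Visudyne and -0.02 to 0.41 in vehicle. Summed markers of neurons stood at 5196 to 6373 CPM in Visudyne and 4571 to 5279 CPM in vehicle, those of oligodendrocytes at 2180 to 2602 and 2258 to 3038 CPM, and those of astrocytes at 4751 to 6188 and 4648 to 5339.5 CPM. Choroid plexus markers summed to 1488 CPM in Visudyne 3 and 937 CPM in Visudyne 5, to 191 to 227 CPM in the other Visudyne libraries and to 186 to 243 CPM in vehicle, and all 8 of them were detected. Their part in the results was not tested.

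Chaperone genes were called about as often as all genes, and mostly for small differences. Of the 67 tested genes 5 were called higher and 7 lower in Visudyne at an adjusted p under 0.05, and 55 were not called. That is 17.9% of the tested members, against 20.5% of all 15938 tested genes, or 7.46% against 8.98% for higher calls and 10.4% against 11.5% for lower ones. The median log2 fold change was 0.02 over the tested members and 0.01 over all tested genes, and 48 of the 67 members lay within 0.25 of 0. The 5 higher were Hspa1b, Hspa12a, Dnajb14, Dnajb9 and Dnajc10, and the 7 lower were Hspa8, Dnajb5, Dnajb11, Dnaja3, Cct5, Cct3 and Cct7. Of these 12, 3 changed by at least 1.5-fold. In 8 of the 67 members, all among the 12, the libraries of the groups did not overlap, or 11.9% against 12.5% of all tested genes. Of these 3 were higher, where 5.25% of all genes were, and 5 lower, where 7.22% were.

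The number of calls changed when single libraries were left out. Beside each count stands the percentage of all tested genes called in the same edgeR fit. With all libraries 29 of the 67 members and 6349 of all 15938 tested genes had an unadjusted p under 0.05. For the other fits, here and in the next paragraph, the share of all genes at that limit was not computed. Their counts of members at that limit therefore have no background to be read against. Without Visudyne 3 there were 0 members called (0.167%), and 21 had an unadjusted p under 0.05. Without vehicle 6 there were 0 (0.0622%), and 22 had one. There was 1 without vehicle 9 (1.92%), and there were 4 without Visudyne 4 (6.96%), 5 without Visudyne 1 (6.94%) and 7 without vehicle 7 (9.67%). There were 8 without Visudyne 2 (11.3%) and 8 without vehicle 8 (13.6%), 16 without vehicle 10 (22.6%) and 21 without Visudyne 5 (31.5%). Leaving out Visudyne 3 and Visudyne 5, the libraries with high choroid plexus markers, gave 13 (18.4%). Over the 10 fits without 1 library, Dnajb5 was called in 8, Cct5 and Dnajb14 in 7 each, Dnaja3 and Cct7 in 6 each and Hspa1b in 5. Hspa12a was called in 4, Dnajc10 and Dnajb11 in 3 each, and Cct3, Dnajb9 and Hspa8 in 2 each.

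Removing the trend of each library with GC content left 3 members called higher, against 1.45% of all genes, and 3 called lower, against 1.69%, or 6 of 67 against 3.14%. Of the 12, 4 were then still called, namely Hspa1b, Hspa12a, Dnajb5 and Cct7, and Hspa1a (higher) and Dnajc8 (lower) were called as well. The same correction without Visudyne 3 gave 0 calls (0.0248% of all genes), without vehicle 6 also 0 (0.056%) and without Visudyne 5 it gave 10 (9.17%). At an unadjusted p under 0.05 there were 19 without Visudyne 3 and 15 without vehicle 6. When the GC slope was a covariate 0 members and 0% of all genes were called, and 2 members had an unadjusted p under 0.05. The slopes nearly separated the groups, so this fit can hardly tell slope and group apart. A fit with 1 surrogate variable called 0 members (0.00627% of all genes), and 10 had an unadjusted p under 0.05. DESeq2 called 10 higher (14.4% of all genes) and 9 lower (17.4%). Without the filter on low counts 2 were called higher (2.99%) and 4 lower (4.6%). Scaling by total counts, in place of library sizes from the trimmed mean of M values (TMM), called 0 higher (1.23%) and 18 lower (24.5%), and it shifted the median over all genes to -0.19 on the log2 scale. Each of the 12 kept its sign in these settings, apart from Cct7 with the GC slope as a covariate.

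**Figure D1:**
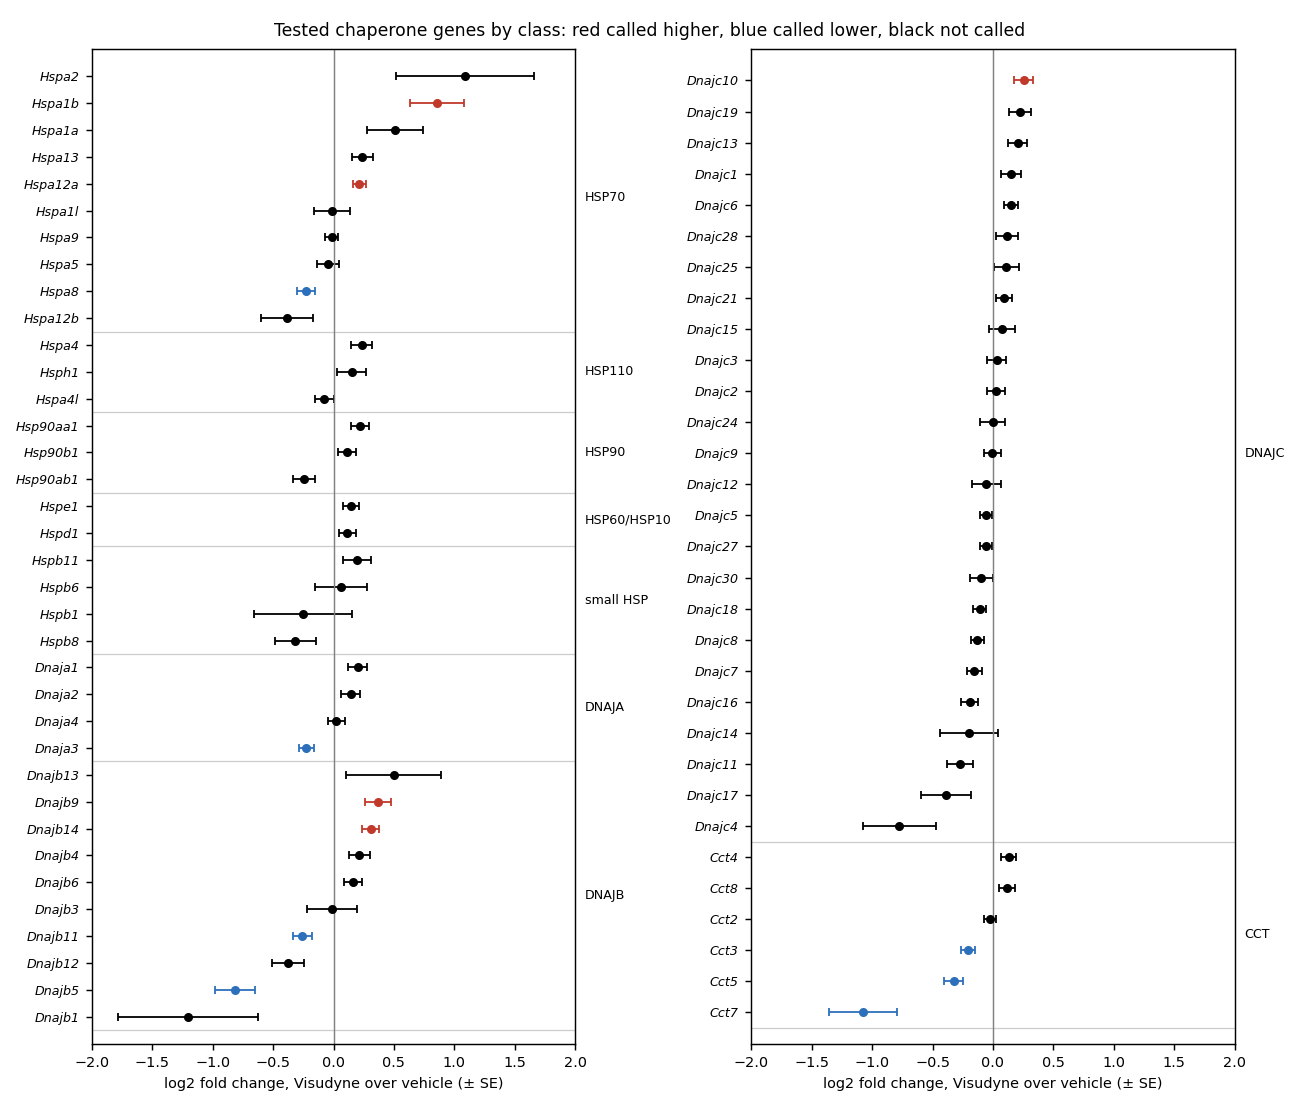
Log2 fold change of Visudyne over vehicle with its standard error for the 67 tested chaperone genes, grouped by class and sorted within each, with 5 libraries per group. Genes called higher are red, genes called lower blue and genes not called black. Most points lie within 0.25 of 0, and the HSP70 and DNAJB classes hold both genes called higher and genes called lower.

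Among the HSP70 genes the stress-inducible copy Hspa1b was higher and the abundant constitutive Hspa8 was lower in Visudyne. Of the 10 tested, 2 were called higher, 1 lower and 7 not called, against 8.98% of all genes higher and 11.5% lower. Hspa1b (ENSMUSG00000090877, GRCm38 chromosome 17, 34956436 to 34959238) encodes inducible HSP70. Its level was 6.19, 6.37, 6.03, 7.39 and 12.9 CPM (normalised counts at TMM library sizes) in Visudyne 1 to 5, against 5.17, 3.51, 4.85, 3.13 and 4.88 CPM in vehicle 6 to 10. Each Visudyne library was above each vehicle library, and Visudyne 5 stood apart from the other 4. The log2 fold change was 0.86 (with SE 0.226 and an edgeR adjusted p = 0.0302), with 7.78 ± 2.93 CPM in Visudyne libraries and 4.31 ± 0.922 CPM in vehicle libraries (SD, n = 5 each).

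Without Visudyne 5 the log2 fold change of Hspa1b was 0.58, still called (adjusted p = 0.0194 by edgeR), and over all fits without 1 library it ranged from 0.58 to 0.94. It was called in 5 of those 10 fits. After removal of the GC trend it was 1.25 and called (adjusted p = 0.025 by edgeR). Its annotated transcripts have 58.1% GC. With the GC slope as a covariate it was 1.15 and not called (adjusted p = 0.543 by edgeR).

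Hspa1a (ENSMUSG00000091971, chromosome 17, 34969190 to 34972156) is the neighbouring, nearly identical copy. It stood at 2.86, 2.96, 3.16, 3.9 and 6.5 CPM in Visudyne 1 to 5 and at 2.67, 2.14, 3.58, 2.7 and 2.52 CPM in vehicle 6 to 10. The groups overlapped, and the gene was not called (log2 fold change 0.51 with SE 0.231, edgeR adjusted p = 0.12). It was called with the GC trend removed, at 0.93 (adjusted p = 0.0419 by edgeR). Of all stretches of 31 bases in the longest annotated transcript, 63.8% of those of Hspa1a and 67.6% of those of Hspa1b occur in the other, so the split of reads between the copies is uncertain. Summed into 1 row, the copies had 9.04, 9.33, 9.2, 11.3 and 19.4 CPM in Visudyne 1 to 5 and 7.84, 5.65, 8.43, 5.83 and 7.4 CPM in vehicle 6 to 10. The groups of the sum did not overlap, and it was called at a log2 fold change of 0.73 (adjusted p = 0.0364 by edgeR), or 1.13 with the GC trend removed. With this row 12 members were called (20.5% of all genes), and 5 once the GC trend was removed (3.1%). The sum was chosen after the values were seen. Hspa1l, the third gene of this cluster, had a log2 fold change of -0.01 and was not called.

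Hspa8 (ENSMUSG00000015656, chromosome 9, 40800984 to 40810087) encodes HSC70, the main constitutive HSP70, which also uncoats clathrin vesicles. It stood at 1213, 1448, 1465, 1379 and 1528 CPM in Visudyne 1 to 5 and at 1677, 1576, 1819.5, 1635 and 1542 CPM in vehicle 6 to 10. The highest Visudyne library was just below the lowest vehicle library. The log2 fold change was -0.23 (with SE 0.0737 and an edgeR adjusted p = 0.0456), so the level was 0.853 of that in vehicle. With the GC trend removed the log2 fold change was -0.20 and not called (adjusted p = 0.11 by edgeR), and without 1 library the gene was called in 2 of 10 fits. In absolute terms this was the largest shift among the HSP70 genes, and the summed level of that class was 2264 ± 137 CPM in Visudyne libraries and 2464 ± 148 CPM in vehicle libraries (SD, n = 5 each).

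Hspa12a (ENSMUSG00000025092, chromosome 19, 58795750 to 58943654), an atypical HSP70 gene with high expression in brain, stood at 195, 183, 204, 185 and 181 CPM in Visudyne 1 to 5. In vehicle 6 to 10 it stood at 170.2, 162, 165, 153 and 169 CPM. All 5 Visudyne libraries were above all 5 vehicle libraries, by a log2 fold change of 0.21 (with SE 0.0546 and an edgeR adjusted p = 0.0292). Removing the GC trend left it at 0.41 and called, and without 1 library it was called in 4 of 10 fits. Its relative Hspa12b, described in endothelium, was at 0.583 ± 0.104 CPM in Visudyne libraries and 0.77 ± 0.177 CPM in vehicle libraries and not called.

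Hspa2, an HSP70 gene best known from male germ cells and also expressed in brain, had the largest spread of all members with at least 1 CPM. It stood at 22.7, 14.6, 24.1, 15.04 and 19.3 CPM in Visudyne 1 to 5 and at 12.7, 0.513, 5.41, 5.24 and 21.9 CPM in vehicle 6 to 10. Within vehicle the values thus ran from 18 counts in vehicle 7 to 555 in vehicle 10, a coefficient of variation of 91.1%, whereas the median over 61 members was 8.57% in Visudyne and 9.24% in vehicle. The log2 fold change of 1.09 (SE 0.567) was not called (adjusted p = 0.17 by edgeR), and without vehicle 10 it was 1.66 and called (adjusted p = 0.044 by edgeR). Of the 10 fits without 1 library only this 1 called Hspa2, and it called 22.6% of all genes. The endoplasmic reticulum HSP70 gene Hspa5 stood at 313 ± 33.8 CPM in Visudyne libraries and 324 ± 37 CPM in vehicle libraries, with a log2 fold change of -0.05. The mitochondrial one, Hspa9, stood at 216 ± 5.08 and 219 ± 12.7 CPM, with a log2 fold change of -0.02, and neither was called. Hspa13, a microsomal HSP70 gene, was at 104 ± 11.3 and 88.1 ± 8.5 CPM (log2 fold change 0.24, adjusted p = 0.0651 by edgeR).

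**Figure D2:**
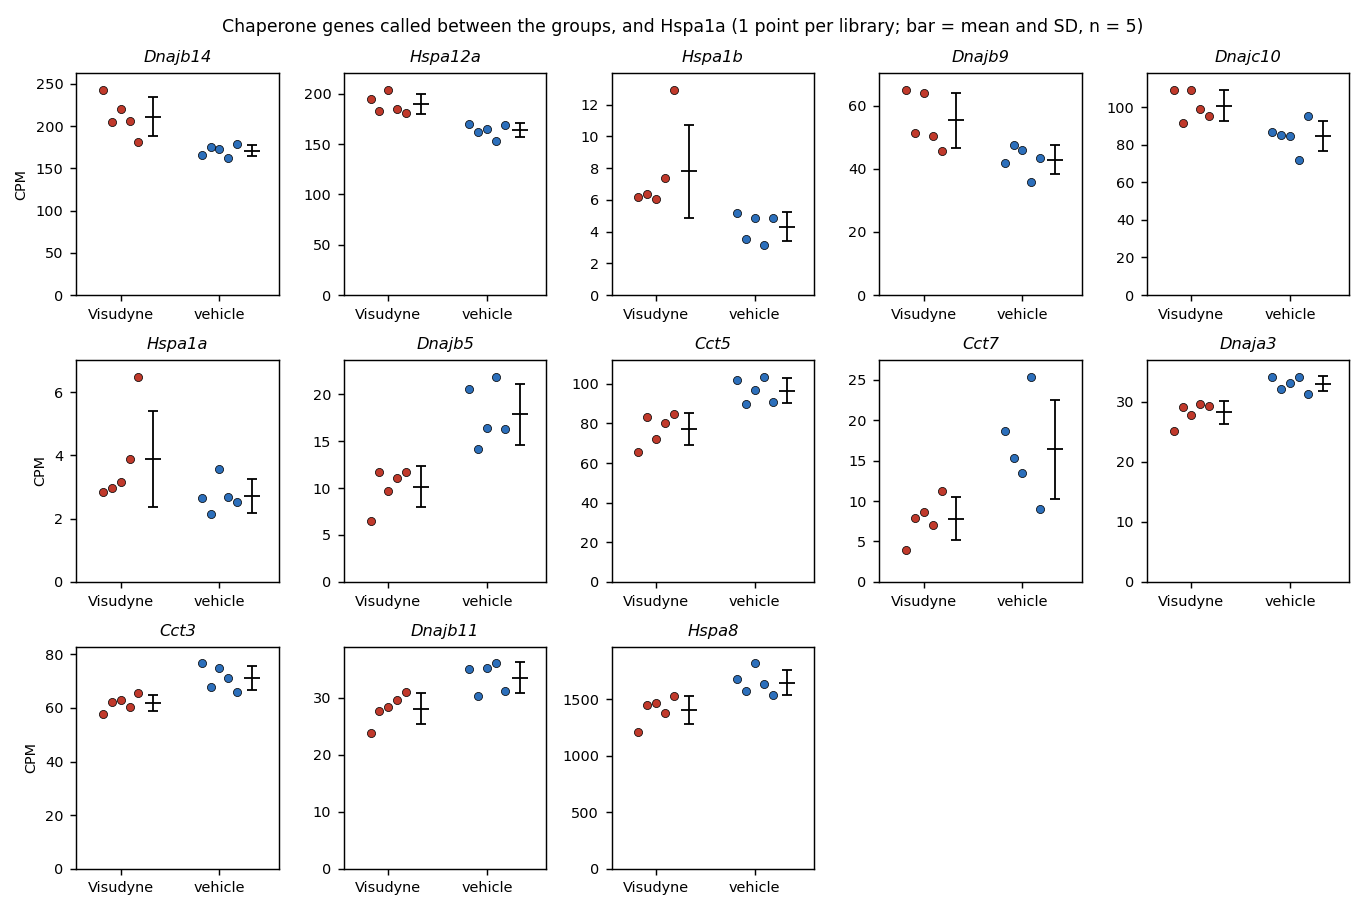
Level in CPM of the 12 chaperone genes called between the groups and of Hspa1a, which was not called, with 1 point per library in the order of the replicate numbers and a black bar for mean and SD (n = 5 each). Hspa1b reached 12.9 CPM in Visudyne 5 and at most 7.39 CPM in the other Visudyne libraries, and Cct7 spread from 9.06 to 25.4 CPM in vehicle.

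None of the HSP110, HSP90 or HSP60 genes among the members was called, although the 2 cytosolic HSP90 genes pointed in opposite directions. Trap1, the mitochondrial HSP90, lies outside the symbol rule and was called lower (log2 fold change -0.33, adjusted p = 0.0305 by edgeR). With the GC trend removed Trap1 was at -0.08 and not called. Hsp90aa1 (ENSMUSG00000021270), the inducible form, stood at 1895, 1802, 2039.5, 1747 and 1989 CPM in Visudyne 1 to 5 and at 1623, 1620.2, 1792, 1394 and 1721 CPM in vehicle 6 to 10. Only Visudyne 4 lay below vehicle 8, so the groups overlapped, and the log2 fold change was 0.22 (with SE 0.0762 and an edgeR adjusted p = 0.0587). Hsp90ab1 (ENSMUSG00000023944), the constitutive form, stood at 472, 642, 604, 626 and 699 CPM in Visudyne and at 779, 683, 704, 742 and 693 CPM in vehicle. Its log2 fold change was -0.24 (with SE 0.0919 and an edgeR adjusted p = 0.0732), and Visudyne 1 was the lowest library by far. DESeq2 called both, with adjusted p values of 0.026 for Hsp90aa1 and 0.0441 for Hsp90ab1. The transcripts of Hsp90aa1 have 44.9% GC and those of Hsp90ab1 51.5%. Hsp90b1, the endoplasmic reticulum form, was at 447 ± 40.2 CPM in Visudyne libraries and 414 ± 32 CPM in vehicle libraries (log2 fold change 0.11).

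Of the nucleotide exchange factors, Hspa4 had a log2 fold change of 0.23 (adjusted p = 0.0682 by edgeR), Hsph1 one of 0.15 and Hspa4l one of -0.08. Hspa4 was called in 1 of 10 fits without 1 library. This was the fit without Visudyne 5, at 0.27, which called 31.5% of all genes. The mitochondrial pair Hspd1 and Hspe1, neighbours on opposite strands of chromosome 1 that overlap where their annotated transcripts start, had log2 fold changes of 0.11 and 0.14. Hspd1 stood at 167 ± 7.71 CPM in Visudyne libraries and 155 ± 15 CPM in vehicle libraries, and Hspe1 at 48.4 ± 2.95 and 43.9 ± 3.42 CPM (SD, n = 5 each).

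Transcripts of the small heat shock genes among the members were scarce in both groups, and none of the 4 tested was called. Cryab, a small heat shock gene outside the symbol rule, was called lower (log2 fold change -0.86, adjusted p = 0.0266 by edgeR). With the GC trend removed Cryab was at -0.63 and not called. The 7 members of this class summed to 11.3 to 14.01 CPM in Visudyne and to 11.3 to 13.6 CPM in vehicle. Hspb11, an intraflagellar transport subunit that carries the family name, made up 51.7% of that sum. Hspb8, which works with the co-chaperone Bag3, was at 4.36 ± 1.1 CPM in Visudyne libraries and 5.42 ± 0.918 CPM in vehicle libraries (log2 fold change -0.32 with SE 0.173, edgeR adjusted p = 0.19). It was called in 1 of 10 fits without 1 library. This was the fit without Visudyne 5, at -0.48, which called 31.5% of all genes. Hspb1, which encodes HSP27 and is strongly inducible, was at 0.288 ± 0.168 and 0.343 ± 0.118 CPM, and Hspb6 at 0.563 ± 0.105 and 0.538 ± 0.103 CPM. The remaining Hspb3, Hspb7 and Hspb9 were among the 8 members not tested, with Cct6b, Cct8l1, Dnajb7, Dnajc5b and Dnajc22. These 8 had 3 to 57 counts over all 10 libraries together, and at most 11 in any library.

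Of the J-domain genes, Dnajb5 had the smallest p of all members. Of 10 tested DNAJB genes 2 were called higher and 2 lower, of 4 DNAJA genes 1 was called lower, and of 25 DNAJC genes 1 was called higher, beside 8.98% higher and 11.5% lower over all genes. Dnajb5 (ENSMUSG00000036052, chromosome 4, 42949814 to 42959425), a cytosolic relative of Dnajb1 that is described in heart and neurons, stood at 6.5, 11.7, 9.68, 11.1 and 11.7 CPM in Visudyne 1 to 5. In vehicle 6 to 10 it stood at 20.6, 14.1, 16.4, 21.9 and 16.3 CPM. The groups were separate, and the level was 0.568 of that in vehicle (log2 fold change -0.82 with SE 0.164, edgeR adjusted p = 0.0229). Of the 12 called genes it was the one called most often without 1 library, in 8 of 10 fits, and with the GC trend removed its log2 fold change was -0.53 and still called (adjusted p = 0.0299 by edgeR).

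Dnajb14 (ENSMUSG00000074212, chromosome 3, 137867675 to 137916557), a J protein anchored in the endoplasmic reticulum membrane, stood at 243, 205, 221, 206 and 181 CPM in Visudyne 1 to 5 and at 166, 175, 173, 162 and 178 CPM in vehicle 6 to 10. The groups were separate, with Visudyne 5 closest to vehicle, at a log2 fold change of 0.31 (with SE 0.0737 and an edgeR adjusted p = 0.0266). Its paralogue Dnajb12 pointed the other way, with a log2 fold change of -0.38 (with SE 0.132 and an edgeR adjusted p = 0.0575). Dnajb14 transcripts have 42.9% GC and those of Dnajb12 55%, and with the GC trend removed Dnajb14 was at 0.08 and not called.

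The co-chaperones of Hspa5 in the lumen of the endoplasmic reticulum were divided. Dnajb9 (ERdj4) was higher, at 55.3 ± 8.68 CPM in Visudyne libraries and 42.9 ± 4.52 CPM in vehicle libraries (log2 fold change 0.37, adjusted p = 0.0371 by edgeR). Dnajc10 (ERdj5), a disulfide reductase, was also higher, at 101 ± 8.13 and 84.6 ± 8.22 CPM (log2 fold change 0.25, adjusted p = 0.042 by edgeR). Dnajb11 (ERdj3) was lower, at 28.0 ± 2.73 and 33.5 ± 2.65 CPM (log2 fold change -0.26, adjusted p = 0.0406 by edgeR). In each of these 3 genes the groups overlapped. Dnajc3 (p58IPK) stood at 89.7 ± 11 and 87.8 ± 4.2 CPM and was not called. Once the GC trend was removed none of the 3 was called, at log2 fold changes of 0.11 for Dnajb9, 0.06 for Dnajc10 and -0.19 for Dnajb11.

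Dnaja3 (TID1), a J protein of mitochondria, stood at 25.2, 29.2, 27.7, 29.7 and 29.3 CPM in Visudyne 1 to 5 and at 34.2, 32.2, 33.2, 34.1 and 31.3 CPM in vehicle 6 to 10. The groups were separate (log2 fold change -0.22 with SE 0.0588, edgeR adjusted p = 0.0298), and with the GC trend removed the gene was at -0.16 and not called. The other 3 DNAJA genes, which encode the cytosolic class A partners, were not called. Dnaja1 was at 349 ± 15.8 CPM in Visudyne libraries and 304 ± 32 CPM in vehicle libraries (log2 fold change 0.20, adjusted p = 0.0725 by edgeR). Dnaja2 had a log2 fold change of 0.14.

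Dnajb1, which encodes HSP40, the classical heat-inducible partner of HSP70, was lower in mean while Hspa1b was higher, and it was not called. It stood at 0, 1.27, 2.55, 0.591 and 2.61 CPM in Visudyne 1 to 5 and at 3.06, 2.2, 3.15, 4.05 and 3.94 CPM in vehicle 6 to 10. The values are low, and the 0 in Visudyne 1 is an estimated count, so the gene is listed at 0 there. The log2 fold change was -1.21 (with SE 0.579 and an edgeR adjusted p = 0.14). Dnajb6, which keeps polyglutamine proteins from aggregating, was at 196 ± 13.5 CPM in Visudyne libraries and 176 ± 17 CPM in vehicle libraries (log2 fold change 0.16).

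The 2 synaptic J proteins were abundant and differed little. Dnajc5, which encodes the cysteine string protein of synaptic vesicles, was at 261 ± 6.43 CPM in Visudyne libraries and 272 ± 8.8 CPM in vehicle libraries (SD, n = 5 each), which is a log2 fold change of -0.06 (with SE 0.0481 and an edgeR adjusted p = 0.383). Dnajc6, which encodes auxilin, the clathrin-uncoating partner of HSC70, was at 395 ± 17.9 and 356 ± 19.3 CPM, a log2 fold change of 0.15 (with SE 0.0573 and an edgeR adjusted p = 0.0762). Dnajc13, an endosomal J protein, had a log2 fold change of 0.21 and was not called. Dnajc14, among the 3 members with the largest variation in vehicle of those with at least 1 CPM there, ranged from 11.96 to 25.6 CPM in Visudyne and from 11.03 to 28.7 CPM in vehicle, and its log2 fold change was -0.20 (SE 0.241). Over the class the median log2 fold change was -0.0047, and 14 of 25 were below 0.

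**Figure D3:**
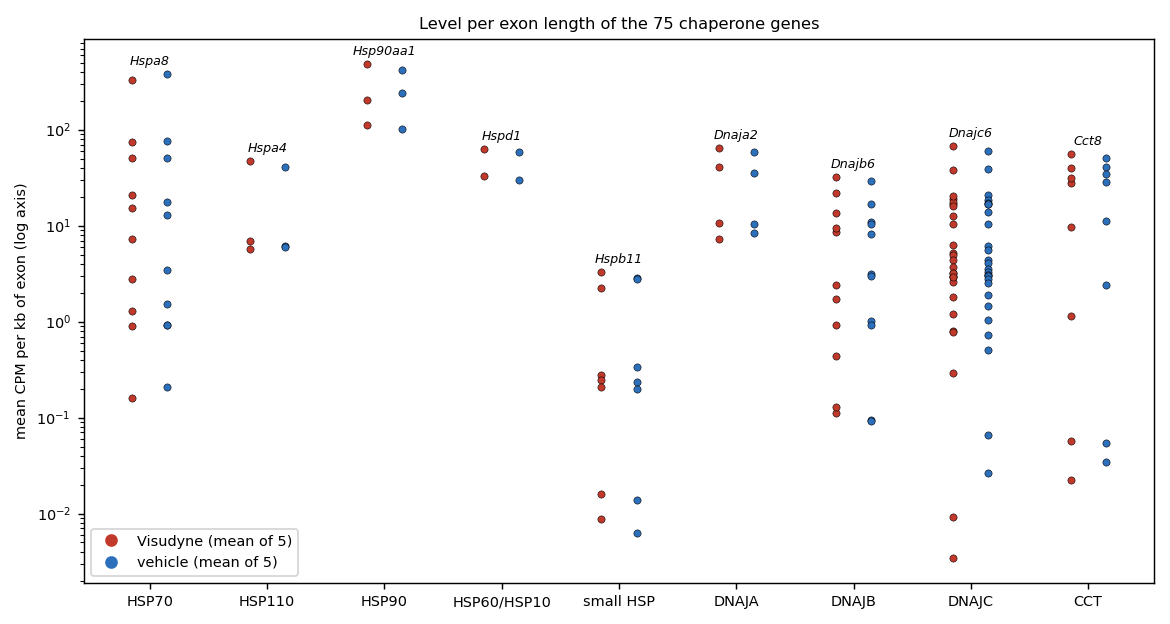
Mean level in CPM per kilobase of annotated exon, on a log axis, of the 75 chaperone genes by class, Visudyne in red and vehicle in blue, with 1 point per gene and the highest gene of each class named. Hsp90aa1 and Hspa8 lead with 482 and 327 CPM per kilobase in Visudyne and 415 and 384 in vehicle, and the highest small heat shock gene, Hspb11, has 3.28 in Visudyne and 2.86 in vehicle.

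Per kilobase of exon the same 5 members led in both groups. Hsp90aa1 was first with 482 CPM per kilobase in Visudyne and 415 in vehicle, followed by Hspa8 with 327 and 384, Hsp90ab1 with 203 and 240 and Hsp90b1 with 111 and 103. Hspa5 came next with 74.1 and 76.7. Dnajc6, Dnaja2, Hspd1, Cct8 and Hspa9 followed between 50.2 and 66.8 in Visudyne and between 50.7 and 60.2 in vehicle. By the mean CPM over all 10 libraries, 14 of the 75 members had under 1, 12 had 1 to 10, 30 had 10 to 100, 17 had 100 to 1000 and 2 had at least 1000.

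The CCT ring is built of 8 different subunits in equal number. Of 6 tested members 3 were called lower and 3 not called, where 11.5% of all genes were called lower. Cct5 (ENSMUSG00000022234, chromosome 15, 31590800 to 31601804) stood at 65.7, 83.0, 72.0, 80.1 and 84.5 CPM in Visudyne 1 to 5 and at 102, 89.7, 97.1, 104 and 90.7 CPM in vehicle 6 to 10. Cct3 (ENSMUSG00000001416, chromosome 3, 88297116 to 88321767) stood at 57.6, 62.4, 62.8, 60.2 and 65.7 CPM in Visudyne and at 76.6, 67.8, 74.8, 71.3 and 65.8 CPM in vehicle. In both genes all Visudyne libraries were below all vehicle libraries, for Cct3 by a margin of less than 1 CPM. The log2 fold changes were -0.33 for Cct5 (with SE 0.0771 and an edgeR adjusted p = 0.0266) and -0.21 for Cct3 (with SE 0.0595 and an edgeR adjusted p = 0.0354).

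Cct7 (ENSMUSG00000030007, chromosome 6, 85451514 to 85468475) had the largest change of the called members, to 0.475 of the vehicle level. It stood at 3.99, 7.93, 8.69, 7.03 and 11.3 CPM in Visudyne 1 to 5 and at 18.7, 15.3, 13.5, 25.4 and 9.06 CPM in vehicle 6 to 10. Vehicle 10 lay among the Visudyne libraries (log2 fold change -1.07 with SE 0.279, edgeR adjusted p = 0.0294). Per kilobase of exon its level was 1.15 in Visudyne and 2.42 in vehicle, below Cct5 with 27.9 and 34.9. With the GC trend removed Cct7 was at -1.06 and called, while Cct5 was at -0.22 (adjusted p = 0.052 by edgeR) and Cct3 at -0.26 (adjusted p = 0.0546 by edgeR).

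Cct4 was at 132 ± 5.44 CPM in Visudyne libraries and 120.4 ± 10.02 CPM in vehicle libraries, Cct8 at 172 ± 5.42 and 158 ± 13.9 CPM and Cct2 at 103 ± 3.15 and 105 ± 3.72 CPM (SD, n = 5 each), and none was called. The annotation gives Cct6a as a processed transcript, so it is no member. It stood at 25.7, 33.9, 33.2, 36.9 and 41.1 CPM in Visudyne 1 to 5 and at 53.6, 45.1, 48.7, 51.2 and 44.3 CPM in vehicle 6 to 10. The groups were separate, and it was called lower (log2 fold change -0.51, adjusted p = 0.0234 by edgeR), also with the GC trend removed, at -0.64. The last subunit gene, Tcp1, had a log2 fold change of 0.02 and was not called.

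Partners and regulators of the family were described from further lists. In the list of heat shock factors and their binding protein Hsbp1, 4 genes were tested, and Hsf1, which encodes the main inducer of Hspa1a and Hspa1b, was called lower, at 1.48 ± 0.347 CPM in Visudyne libraries and 2.49 ± 0.7 CPM in vehicle libraries (log2 fold change -0.75, adjusted p = 0.0361 by edgeR). Hsf2 had a log2 fold change of 0.17 and Hsbp1 one of 0.05. Of 18 genes known as targets of HSF1, 12 of which are members, 1 was called higher and 3 lower, against 8.98% and 11.5% of all genes, and the median log2 fold change was -0.10. The 3 lower were Cryab, Fkbp4 and Hspa8. Cryab, a small heat shock protein of oligodendrocytes and astrocytes, was at 2.15 ± 0.653 and 3.89 ± 0.626 CPM (log2 fold change -0.86). With the GC trend removed 2 of the 18, Hspa1a and Hspa1b, were called higher and 0 lower, against 1.45% and 1.69% of all genes, and Hsf1, at -0.36, was not called. These 2 copies share most of their sequence, so they are not separate counts.

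Of 28 co-chaperones 3 were called higher and 7 lower (median log2 fold change -0.13), with Stub1, the ubiquitin ligase CHIP, at -0.70, Unc45a, a myosin chaperone, at -1.04, and Bag6 at -0.65. Of 11 tested other chaperones 5 were called lower and 0 higher (median -0.25), among them Nudc at -0.65 and Trap1, the mitochondrial HSP90, at -0.33. Of 8 prefoldin genes, which hand actin and tubulin to the CCT ring, Pfdn5 was called lower at -0.80 and Vbp1 higher at 0.38. Of 20 genes of folding and the unfolded protein response in the endoplasmic reticulum 2 were called higher and 7 lower (median -0.22), with Xbp1 at -0.28, P4hb at -0.28 and Calr at -0.32. The background is 8.98% higher and 11.5% lower over all tested genes. With the GC trend removed, of the calls in these 4 lists only that of Pfdn5 remained, at -0.61, while the share of all genes called was 3.14%. Log2 fold changes of genes no longer called included -0.63 for Unc45a, -0.27 for Nudc and -0.26 for Calr, and -0.24 for Stub1 and -0.20 for Bag6. Those of Xbp1, Trap1, P4hb and Vbp1 were -0.15, -0.08, -0.01 and 0.04.

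Higher calls lay mostly at low GC content and lower calls at higher GC content. The 5 genes called higher had a median of 43.8% GC in their annotated transcripts, the 7 called lower 50.5% and the 55 not called 47.4%. Of the 34 members at or above 48.3% GC, 25 had a log2 fold change below 0, with a median of -0.17. Of the 33 below it 8 did, with a median of 0.13. Spearman's rho between GC content and log2 fold change was -0.47 over the 67 members and -0.68 over 15829 tested genes, which are not independent replicates and share the same 10 libraries. After removal of the GC trend rho over the members was 0.22. Hspa1b and Hspa1a lay at 58.1% and 58.9% GC with positive log2 fold changes, and Hspa12a at 52.7%.

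**Figure D4:**
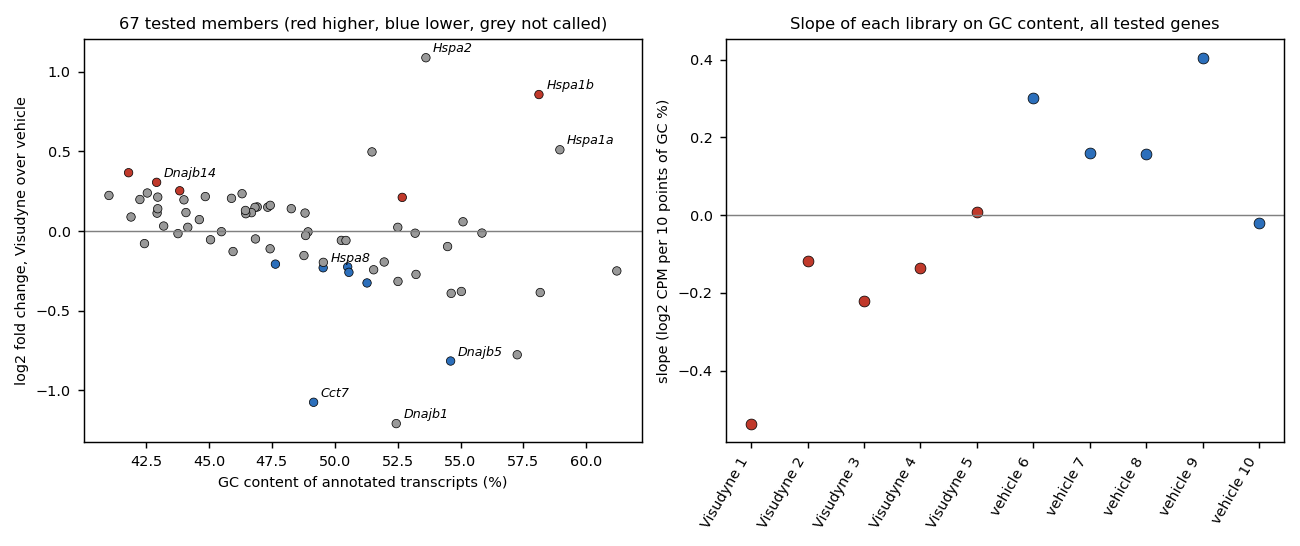
Left, log2 fold change of Visudyne over vehicle against the GC content of the annotated transcripts for 67 chaperone genes (red called higher, blue called lower, grey not called). Right, the slope of each library's log2 CPM on GC content, from -0.54 to 0.0079 in Visudyne and from -0.02 to 0.41 in vehicle. Members of low GC content lie mostly above 0 and those of high GC content mostly below it, with Hspa1b, Hspa1a, Hspa2 and Hspa12a among the exceptions.

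**Figure D5:**
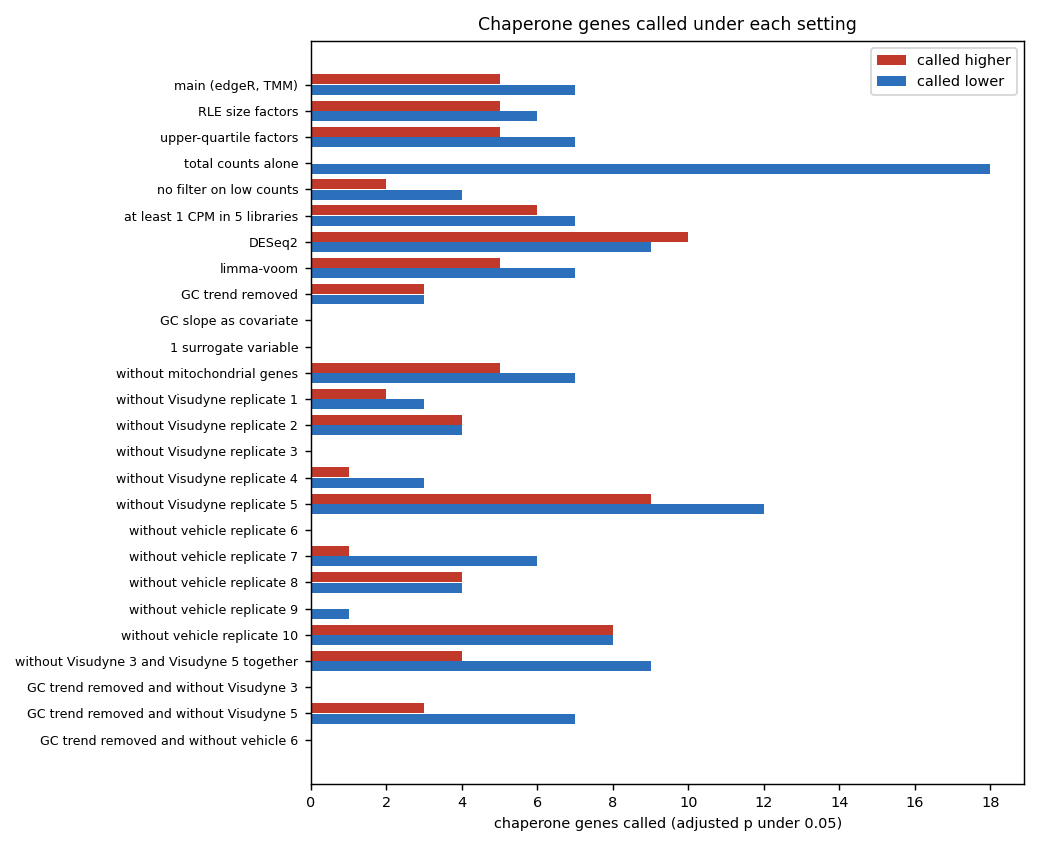
Number of chaperone genes called higher (red) and lower (blue) in Visudyne under each setting of the analysis, at an adjusted p under 0.05. With 1 library left out the counts ran from 0 without Visudyne 3 or vehicle 6 to 9 higher and 12 lower without Visudyne 5, against 5 and 7 with all libraries, and total counts alone gave 0 higher and 18 lower.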

How the data were processed

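The authors deposited 1 table of estimated counts per gene for the 10 libraries, whole numbers that were used as they stand. FastQC, Salmon and build mm10 are named per the submitters' processing notes, and a stranded kit for total RNA was used per the labels' protocols. For the annotation and the summing to genes, the sources used here name nothing. Symbols, positions and exon lengths came from GENCODE M21 on GRCm38, where 27053 of 27343 identifiers matched. GC content is that of all annotated transcripts of a gene. The 5 Visudyne and 5 vehicle libraries entered 1 fit by edgeR 4.0.16 under R 4.3.3, a two-sided quasi-likelihood test between groups after filterByExpr and TMM scaling, with Benjamini-Hochberg adjustment over 15938 genes. Every fold is Visudyne over vehicle, and a standard error is the log2 fold change divided by the root of F. Alternatives used DESeq2 1.42.0, limma 3.58.1 and sva 3.50.0, or a loess trend on GC content (span 0.3) removed through offsets. The fit was also run on simulated counts. These held no GC slope per library, so that run cannot show how the fit behaves under such slopes. Libraries of a group differed beyond sampling noise (chi-square per degree of freedom at least 13.5), and that they are separate mice is taken from the labels. Otherwise p-values measure only the spread between these libraries. The members and lists were chosen with earlier results of these data known. Named genes are those called, a panel of 30 members of which 28 are in the table, the member of each class highest per kilobase, the 3 with the largest vehicle variation among members of at least 1 CPM and the 3 of smallest p in each list. Hspa1l, Hspa12b, Dnajb12, Dnajc3, Dnajc8, Dnajc13, Cct4 and the 8 untested genes among members were named as relatives or to complete a count, and Cct6a, Tcp1 and Fkbp4 as partners, after values were seen.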

Additional observations from a re-analysis of the deposited data

Results flagged for a closer look

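Within a group of 5 libraries, 1 library lay far from the rest in 4 of 76 sets of values examined, and chance alone would flag about 1 in 20. Hspa1b in Visudyne 5 stood at 12.9 CPM, where the other Visudyne libraries had 6.03 to 7.39 CPM. Hspa1a in Visudyne 5 stood at 6.5 CPM, where the others had 2.86 to 3.9 CPM. Hspa4l, an HSP110 gene, stood at 80.6 CPM in Visudyne 5, against 62.4 to 66.5 CPM in the other Visudyne libraries, and at 80.0 CPM in vehicle 8, against 67.3 to 70.5 CPM in the other vehicle libraries. Visudyne 5 is also 1 of the 2 libraries with high choroid plexus markers, at 937 CPM, and Visudyne 3, the other, had 1488 CPM of these markers and 6.03 CPM of Hspa1b. The part of these markers in the values was not tested.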

How the results depend on the processing

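The 5 members called higher became 0 with total counts alone, the GC slope as a covariate or 1 surrogate variable, 2 with no filter on low counts, 3 with the GC trend removed and 10 by DESeq2. The 7 called lower became 18 with total counts, 0 with the GC slope or the surrogate variable, 4 with no filter and 3 with the GC trend removed. Leaving out 1 library gave 0 to 9 higher and 0 to 12 lower. Chosen after seeing the data, the GC trend removed without Visudyne 3 or without vehicle 6 gave 0 and 0, and without Visudyne 5 it gave 3 higher and 7 lower. With Hspa1a and Hspa1b summed, removal of the GC trend gave 2 higher and 3 lower. Leaving out Visudyne 3 and Visudyne 5 together gave 4 higher and 9 lower. Among all tested genes, 1432 higher and 1829 lower calls became 231 and 270 with the GC trend removed, 196 and 3902 with total counts, and 2029 and 2451 by DESeq2. Over 38 named members and 27 settings, Cct7 alone reversed among called genes, to 0.094 with the GC slope as a covariate, where it was not called. No paired analysis was possible because the replicate numbers 1 to 5 and 6 to 10 do not overlap. The cause of these differences was not tested. Members at a few CPM, such as Hspb1, limit what small changes could be seen at this depth.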
